A study of Zea mays with 9 samples.

Results

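The transcripts that gave the strongest signal in roots of young maize seedlings were the 200, of 39372 on the array, with the highest mean level over 9 arrays, 0.508% of the probes. Only 38 of them could be placed in a list of known role or of tissue markers. Among these were 6 aquaporins, 3 ribosomal P proteins, 3 ubiquitins, 3 ubiquitin-conjugating enzymes and 3 nicotianamine synthases. The level is how far the log2 signal of a spot lies above the 75th percentile of its array, also in log2, and every spot was kept. Roots came from seedlings of the P0423 hybrid, aged 4 days at the start of a treatment of 3 days, and each sample pooled the roots of 24 seedlings. All solutions held the same diluted nutrient mix, which per the methods itself contains a little NH4H2PO4, and 11.3 mg of total nitrogen per litre. This nitrogen came as NH4H2PO4 (N), as a mixture of free amino acids (Aa) or as a protein hydrolysate (Bio, from SICIT2000, at 0.1 ml per litre). NH4H2PO4 also carries phosphate, and the methods state no matching of phosphate in Aa and Bio. In differences from N, the form of nitrogen and the phosphate supply therefore cannot be told apart. The amino acid mixture copied the amino acid content of the hydrolysate. Each treatment had 3 arrays from independent replicates, and the study asked how the form of nitrogen changes the root transcriptome. Whole roots were taken, so that a smaller number of cells of a type and less RNA per cell cannot be told apart.

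A young root takes up water and mineral ions, pushes a growing tip through the medium and depends on sugar from the seed. Water crosses membranes through aquaporins, and a proton pump in the plasma membrane drives the uptake of ions. Grass roots take up iron with secreted chelators, the phytosiderophores, that are made from nicotianamine. Steady growth also needs ribosomes, protein turnover through ubiquitin, and enzymes that loosen or stiffen the wall.

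The members were chosen by their mean level over all arrays, so that their high level is no result. The mean gave the treatments equal weight, but a high level in 1 or 2 treatments could bring a transcript into the set: 22 members were not among the 200 highest of N alone, 22 not among those of Aa and 15 not among those of Bio. For such members the differences of the treatment in which they were not among the 200 highest are a description, with no p given, though the counts of members include them. Probes differ in how strongly they bind, so that the rank is one of signal and not of transcript amount. On each of the 9 arrays all 200 members stood well above background, and no spot was saturated. Of the 1800 spots of the members, 339 or 18.8% were marked by the scanner software as uneven or as outliers, against 5.68% over the whole array, and 102 members had no marked spot. The gene table gave an entry for 124 members, and only part of these entries carries a name that tells the role. Members without a name are given by rank or identifier.

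Of 28 markers of root tissue, 22 were well above background on every array and 10 were members, and their summed level was 9.38 to 9.50 on the N arrays, 10.03 to 10.56 on the Aa arrays and 9.37 to 10.2 on the Bio arrays. Without the nicotianamine synthases on this list the sums overlapped, at 9.18 to 9.33 in N, 9.33 to 9.72 in Aa and 9.06 to 9.53 in Bio. Of 19 kernel markers (zeins, globulins and oleosins among them), 6 were well above background on every array and none was a member. Markers of green shoot tissue, without cp29, differed between arrays: their summed level was between 0.16 and 2.29 on the N arrays, between -0.21 and 1.81 on the Aa arrays, and 5.30, 3.62 and 2.10 on Bio arrays 1, 2 and 3. Arrays 1, 2 and 3 of every treatment shared slides 1, 2 and 3, and a treatment always took the same place on a slide. Place and treatment therefore cannot be told apart.

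The members carried between 18.5% and 21.2% of the summed signal of an array. The share was 19.2%, 18.5% and 19.2% on the N arrays, 20.4%, 21.2% and 20.5% on the Aa arrays and 20.9%, 18.7% and 20.1% on the Bio arrays. The Aa arrays lay above the N arrays, and the Bio arrays overlapped both. Some members, such as the nicotianamine synthase transcripts, came into the set through the treatments in which they were high. They add to these shares, so that the order of the shares describes the set and tests nothing. Levels ran from 7.44 for the highest member down to 5.09, which is 174 and 34.1 times the 75th percentile of the array. The last 2 members had mean levels of 5.09 and 5.09, and the first 2 transcripts outside had 5.08 and 5.07.

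**Figure D1:**
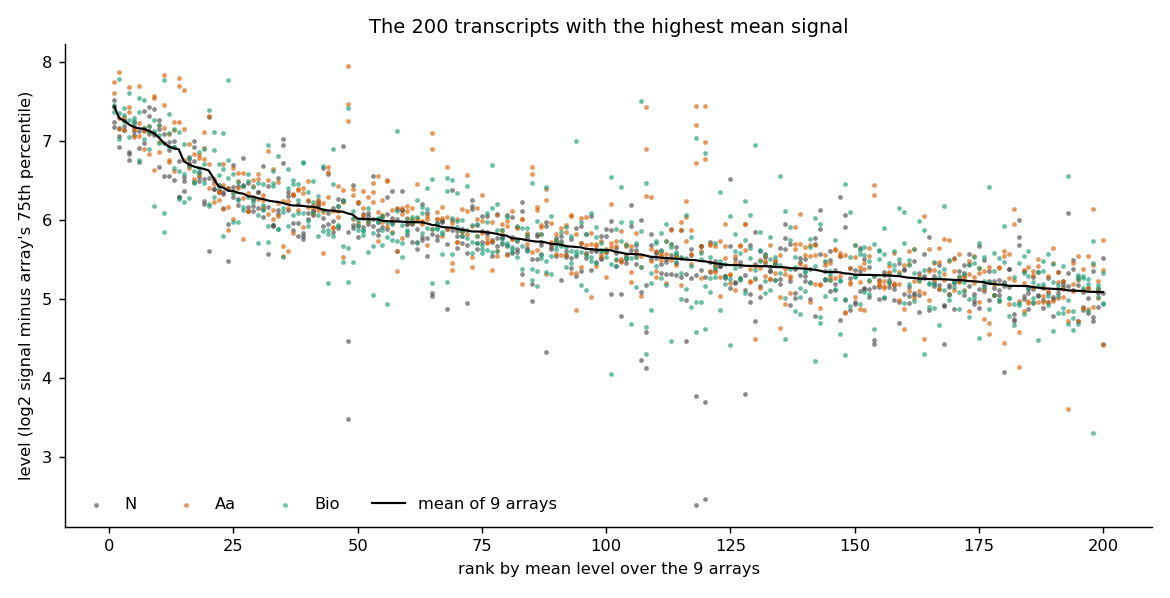
Level of each of the 200 members on each of the 9 arrays (points, coloured by treatment) against its rank by mean level, with the mean of the 9 arrays as a line. The mean falls from 7.44 to 5.09, and a few members, above all those ranked 48, 118 and 120, spread far more than the others.

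The 200 highest transcripts of each treatment, ranked by that treatment alone, were largely shared. N and Aa shared 166 of their 200, N and Bio 170, Aa and Bio 167, and 154 were in all 3 lists. Exactly 100 transcripts were among the 200 highest on each of the 9 arrays, and 353 were so on at least 1 array. All 15 highest members stayed within rank 77 on every array. On 3 arrays (N 1, Bio 2 and Bio 3) the single brightest transcript was not a member: it ranked 29327, 14687 and 15761 by its mean, was marked by the scanner software on that array and lay at -6.51, -2.33 and -2.54 or lower on the other 8.

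The highest member was GF14-6 (GRMZM2G102499_T01), a 14-3-3 protein. Such proteins bind phosphorylated partners and regulate, among others, the proton pump of the plasma membrane. Its level was 7.24, 7.53 and 7.18 on the N arrays, 7.44, 7.75 and 7.61 on the Aa arrays and 7.36, 7.43 and 7.46 on the Bio arrays. The treatments overlapped, and Aa was higher than N by 0.28 ± 0.17 (SE) on the log2 scale (limma, unadjusted p = 0.13, adjusted p = 0.8). Every SE printed here is the moderated one of limma, which also draws on the spread of all transcripts. For the steadiest members it is larger than the SE from their own replicates. The other transcript of this family that the gene table names, GF14-12, was at 1.99 and ranked 3200.

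ADF3 (GRMZM2G060702_T01), an actin-depolymerizing factor that cuts actin filaments, ranked 5 and was among the steadiest members. It gave 7.13, 7.25 and 7.07 in N, 7.15, 7.18 and 7.06 in Aa and 7.26, 7.22 and 7.30 in Bio. The spread among replicate arrays was 0.067 (SD pooled over treatments). All Bio arrays lay above all Aa arrays, by 0.13 ± 0.14, and N overlapped both. The other actin-depolymerizing factors that the gene table names, adf1 and adf2, ranked 27727 and 30430.

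The unnamed transcript GRMZM2G061135_T01, ranked 4, was at 6.87, 6.84 and 6.76 in N, 7.43, 7.69 and 7.38 in Aa and 7.61, 7.27 and 7.06 in Bio. Every Aa and every Bio array lay above every N array, by 0.67 ± 0.19 and 0.49 ± 0.19 (limma, unadjusted p = 0.0067 and 0.031, adjusted p = 0.411 and 0.655). GRMZM2G002825_T01, ranked 3, lay between 7.14 and 7.43 on all arrays. The transcripts ranked 2 and 6, GRMZM2G099867_T01 and GRMZM2G031102_T01, share 1 gene in the newer gene table. Their probes gave like differences, 0.39 ± 0.26 and 0.41 ± 0.26 for Aa minus N and 0.34 ± 0.26 and 0.30 ± 0.26 for Bio minus N, and both were highest on Aa array 2. GRMZM2G036629_T01, ranked 11, spread most of the highest 15, with an SD of 0.654 among replicate arrays. It reached 7.77 on Bio array 3 but 6.09 and 5.85 on Bio arrays 1 and 2.

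Aquaporins supplied 6 members out of 27 named on the array: 5 of the plasma membrane type (PIP) and 1 of the vacuolar type (TIP). PIP2-6 (rank 8) was at 7.31, 7.43 and 7.12 in N, 6.83, 7.09 and 7.19 in Aa and 6.90, 7.19 and 7.11 in Bio, with overlap between all treatments. PIP2-5 (rank 10) was at 7.15, 7.27 and 6.68 in N, 6.99, 7.21 and 6.87 in Aa and 6.98, 7.20 and 7.09 in Bio. Its largest difference between treatments was 0.07 ± 0.20, and it was no larger than the spread between replicates. PIP1-5, PIP1-1 and PIP2-4, ranked 34, 93 and 165, differed by 0.26 or less in each comparison, within the spread of the replicates.

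TIP2-2 (GRMZM2G056908_T01), which lets water and ammonia through the vacuolar membrane, ranked 14 and stood apart from the PIP members. It gave 6.30, 6.30 and 6.75 in N, 7.25, 7.80 and 7.70 in Aa and 6.27, 6.62 and 7.11 in Bio. The Aa arrays lay above all others. The difference was 1.13 ± 0.27 for Aa minus N (2.19-fold) and -0.91 ± 0.27 for Bio minus Aa. The limma p was 0.0026 for Aa minus N and 0.0087 for Bio minus Aa before adjustment and 0.37 and 0.764 after it. Within slides 1, 2 and 3 Aa exceeded N by 0.95, 1.5 and 0.95. Over the 27 aquaporins, 2 were higher and 4 lower in Aa than in N at an unadjusted p below 0.05 (3.38% and 4.43% of all transcripts), 0 higher and 2 lower in Bio than in N (3.67% and 3.73%), and 0 passed the threshold in either comparison. Their median difference was 0.03 and -0.18, against -0.01 and 0.03 over all transcripts. The second higher one in Aa was TIP2-1, no member, with a difference of 0.86, and the lower ones included TIP1-2 with -1.81.

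The protein-making machinery was present with 3 acidic ribosomal P proteins of 7 named on the array and 2 of 3 named transcripts of elongation factor 1-alpha. The P proteins form the stalk of the large ribosomal subunit, and the elongation factor brings the charged tRNA. The highest P protein, rpp3 (rank 16), was at 6.80, 6.78 and 6.73 in N, 6.69, 6.66 and 6.97 in Aa and 6.68, 6.28 and 6.78 in Bio. Neither it nor rpp2 (rank 95) or rpp1a (rank 171) reached an unadjusted p below 0.05 in any comparison, with differences between -0.27 and 0.08. The elongation factor transcript elfa7 (rank 60) gave 5.81, 5.95 and 5.96 in N, 6.18, 6.02 and 6.12 in Aa and 6.01, 5.85 and 5.88 in Bio. Its Aa arrays lay above all others, and Aa minus N was 0.20 ± 0.15 (1.15-fold). The second, elfa3 (rank 106), overlapped in all comparisons.

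Ubiquitin marks proteins for breakdown, and 3 transcripts of ubiquitin and 3 of ubiquitin-conjugating enzymes were members, of 5 and 4 named on the array. MUB14 (rank 22) gave 6.45, 6.39 and 6.36 in N, 6.36, 6.36 and 6.25 in Aa and 6.43, 6.71 and 6.57 in Bio. Its Bio arrays lay above the Aa arrays by 0.24 ± 0.15. MUB6 (rank 37) ran from 5.84 to 6.50 with all treatments overlapping. The transcript csu456(uce), ranked 12 and named in the table as a conjugating enzyme, ran from 6.56 to 7.35.

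The reference transcript of the study's quantitative PCR, the ubiquitin-conjugating enzyme UBCE (GRMZM2G027378_T01), ranked 90. Its primers are shown because the use of a reference rests on its steady level.
UBCE forward primer: tgcgttaatcacgagacagg
UBCE reverse primer: aatcacaaagacaggcaggg
Both are 20 bases long and stand in the study's primer table. UBCE gave 5.78, 5.72 and 5.55 in N, 5.58, 5.76 and 5.83 in Aa and 5.64, 5.74 and 5.69 in Bio. The treatments overlapped, the differences were 0.04 ± 0.15, 0.01 ± 0.15 and -0.03 ± 0.15 for Aa minus N, Bio minus N and Bio minus Aa, and the SD among replicate arrays was 0.106. Of its 9 spots, 6 were marked by the scanner software.

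**Figure D2:**
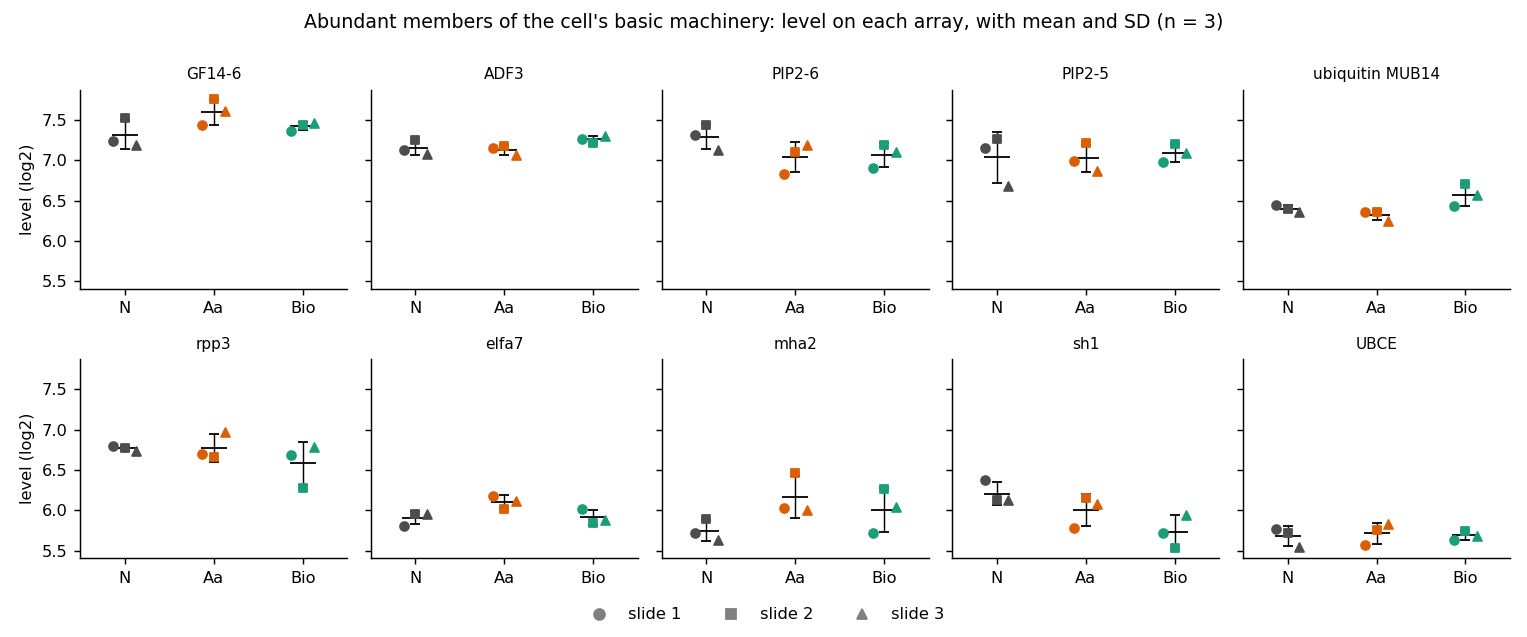
Level of 10 members on each array (points, with the shape giving the slide) and the mean with SD of the 3 arrays of a treatment. ADF3, elfa7 and UBCE stay within narrow bands in all treatments, while mha2 and sh1 spread over wider ones.

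Sugar use and energy were represented by sh1, adh2 and frk2. Sucrose synthase sh1 (rank 59), which splits the sucrose that reaches the root, gave 6.37, 6.13 and 6.13 in N, 5.78, 6.16 and 6.08 in Aa and 5.72, 5.53 and 5.95 in Bio. All Bio arrays lay below all N arrays, with a difference of -0.48 ± 0.19 (limma, unadjusted p = 0.032, adjusted p = 0.655). With the normexp correction, described with the comparisons, sh1 was higher in Bio than in N relative to the median of all transcripts. Alcohol dehydrogenase adh2 (rank 43) was high on N array 1 (6.66) and Bio array 2 (6.69) and between 5.59 and 6.22 on the others. Fructokinase frk2 (rank 133) ran from 5.12 to 5.79 with all treatments overlapping. The proton pump of the plasma membrane, mha2 (rank 62), was at 5.72, 5.89 and 5.64 in N, 6.03, 6.46 and 6.01 in Aa and 5.72, 6.26 and 6.04 in Bio. Its Aa arrays lay above the N arrays by 0.41 ± 0.21 (limma, unadjusted p = 0.082, adjusted p = 0.727).

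Several members guard against oxidants or pathogens. The glutathione transferase gst2 (rank 20), the 1 member among 32 named transcripts of this family, ran from 5.61 to 7.39 and had an SD of 0.686. It was highest on array 2 of every treatment, at 7.31, 7.32 and 7.39. Superoxide dismutase sod4, which removes superoxide in the cytosol, ran from 4.68 to 6.19, with the lowest and a high value (5.98) both in Bio. Peroxidase pox2 (rank 136) gave 5.78, 5.96 and 5.64 in N, 5.38, 5.32 and 4.94 in Aa and 5.02, 6.11 and 4.49 in Bio, so that Aa lay below N while Bio spanned both, and 5 of its 9 spots were marked. The list of 5 named peroxidases went the other way, with a median difference of 0.47 in Aa and 0.34 in Bio against N. In Aa 2 were higher and 0 lower than in N at an unadjusted p below 0.05 (limma, 3.38% and 4.43% of all transcripts). In Bio 0 were higher and 0 lower (3.67% and 3.73%). With the normexp correction, pox2 itself had a higher mean in Aa than in N relative to the median of all transcripts. Ferredoxin fdx3 (rank 78) ran from 5.54 to 6.20.

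Chitinase chiI (rank 47), which attacks fungal walls, was at 6.25, 6.94 and 6.25 in N, 6.23, 6.39 and 5.54 in Aa and 5.47, 6.24 and 5.68 in Bio. The Bio arrays lay below the N arrays, with a difference of -0.68 ± 0.32 (limma, unadjusted p = 0.063, adjusted p = 0.655), although Bio array 2 came very close to the lowest N value. With the normexp correction, described with the comparisons, this difference was 0.33 relative to the median of all transcripts. Pathogenesis-related PR-1 (rank 125) ran from 4.42 on Bio array 1 to 6.52 on N array 2. In the list of 10 pathogenesis-related and chitinase transcripts, 4 were lower in Aa and 5 lower in Bio than in N at an unadjusted p below 0.05 (4.43% and 3.73% of all transcripts), none was higher, and both members were outside these. The median difference of the list was -1.08 and -1.27. The chaperone bip1 of the endoplasmic reticulum (rank 173) ran from 4.78 to 5.57 with overlap in all comparisons. The member cp29 (rank 45) carries the name of a photosystem protein and was at 6.90, 6.46 and 5.79 on the Bio arrays and between 5.85 and 6.16 on the N and Aa arrays. The summed level of the other green tissue markers, given above, was also highest on Bio array 1, though its single markers did not all follow this order, and their part in the result was not tested.

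For the comparisons, passing the threshold meant a fold of at least 2 together with an adjusted p of 0.01 or less (Benjamini-Hochberg, over the 39372 transcripts). In Aa vs. N, 0 of the 200 members passed (0% of all transcripts), and no limma adjusted p of a member was below 0.36. At an unadjusted p below 0.05 stood 20 members, against 7.81% of all transcripts. Of these 17 were higher in Aa (3.38% of all) and 3 lower (4.43% of all). The arrays of both treatments did not overlap for 40 members (14.6% of all), of which 33 were higher in Aa (6.39%) and 7 lower (8.22%). A fold of 2 or more was reached by 14 members (6.79%), 11 higher (2.81%) and 3 lower (3.99%). These counts include members not among the 200 highest of N or of Aa, such as the 3 nicotianamine synthase transcripts. Such members came in through the treatments in which they were high, so that these shares describe the set and test nothing. The same holds for the counts of the other comparisons. The methods' t-test took in 3 members without adjustment and 0 after Benjamini-Hochberg adjustment. Of the 3, TIP2-2 was among the 200 highest of both N and Aa. Formate dehydrogenase was not among those of N and expB7 not among those of Aa, so that for them this is a description.

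In Bio vs. N, 0 members passed (0% of all), with a smallest adjusted p of 0.599, and 14 stood at an unadjusted p below 0.05 (7.4% of all), 8 higher (3.67%) and 6 lower (3.73%). No overlap was seen for 33 (10.8%), 16 higher (5.14%) and 17 lower (5.67%). A fold of 2 was reached by 5 members (6.08%), all of them higher in Bio (3.14%) and 0 lower (2.94%). In Bio vs. Aa, 0 passed (0% of all), with a smallest adjusted p of 0.764, and 13 stood at an unadjusted p below 0.05 (5.21%), 2 higher (3.19%) and 11 lower (2.02%) in Bio. No overlap was seen for 22 (12.7%), 7 higher (8.94%) and 15 lower (3.74%), and 5 reached a fold of 2 (4.37%), 1 higher (2.8%) and 4 lower (1.56%) in Bio. By the methods' t-test 0 members passed when Bio was set against either N or Aa, with and without adjustment. With the slide as a block, the members at an unadjusted p below 0.05 numbered 25, 24 and 22 in the 3 comparisons, against 11%, 10.6% and 8.34% of all transcripts, and 0 passed the threshold.

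With the 75th percentile, the size of the differences was small for most members. With the normexp correction the median size relative to the median transcript was larger in both comparisons with N, as given in the last section. The median size was 0.17 for Aa against N, 0.19 for Bio against N and 0.21 for Bio against Aa, compared with 0.20, 0.25 and 0.24 over all transcripts. A difference under 0.5 in each of the 3 comparisons was found for 147 members, 73.5% of them, against 60.7% of all transcripts. The balance of directions depended on how the arrays were scaled. With the 75th percentile, 142 members had a higher mean in Aa than in N (48.5% of all transcripts did) and the median of the members was 0.09, but with quantile normalization 94 did (50.7% of all) and the median was -0.01. With the normexp background correction, which moved the median of all transcripts to -0.48 in Aa minus N and -0.34 in Bio minus N, 197 members were higher in Aa and all but 1 higher in Bio than in N relative to that median. The exceptions were HRGP, expB7 and BX3 in Aa and HRGP in Bio. All other members with a lower mean than N, such as pox2 in Aa and sh1 in Bio, turned higher by this measure. In Bio vs. N, 123 members had a higher mean in Bio with the 75th percentile (53% of all) and 97 with quantile normalization. In Bio vs. Aa, 76 had a higher mean in Bio with the 75th percentile (56% of all), 94 with quantile normalization and 38 with normexp. With quantile normalization, 13 members were higher and 8 lower in Aa than in N at an unadjusted p below 0.05 (4.09% and 3.77% of all transcripts), and 5 higher and 14 lower in Bio than in N (3.52% and 4.08%). With normexp these were 13 and 1 (0.744% and 0.584%) and 10 and 0 (0.518% and 0.427%). Taking the percentile over the probes well above background gave 7 members higher and 9 lower in Bio than in N (3.39% and 4.03%). Members without overlap numbered 21 higher and 18 lower in Aa vs. N and 9 and 19 in Bio vs. N with quantile normalization, and 25 and 1 and 12 and 0 with normexp.

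**Figure D3:**
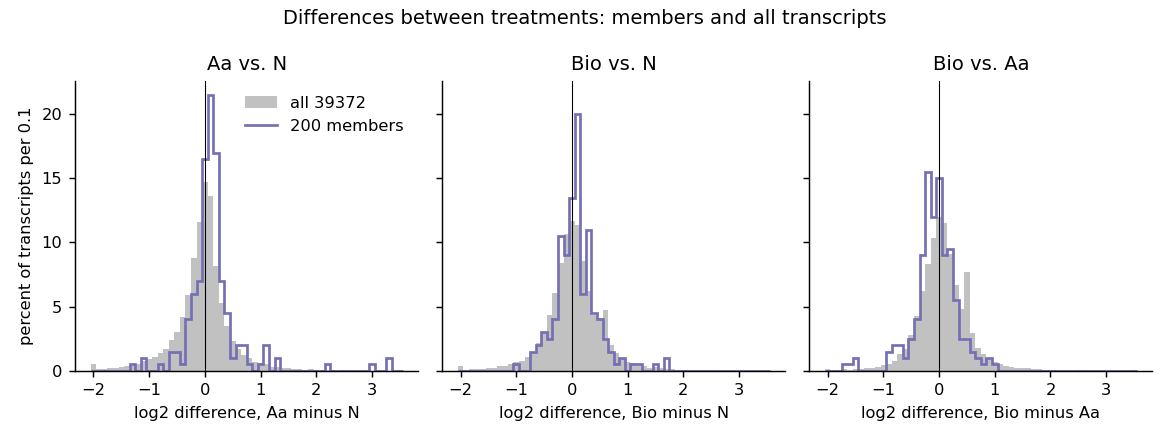
Share of transcripts (percent per bin of 0.1) against the log2 difference between treatments, for the 200 members (line) and all 39372 transcripts (grey), with values beyond the axis in the end bins. In Aa vs. N most members lie near 0.09, and 3 members lie at 2.96 or above.

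The largest differences from N among the members, in Aa and in Bio, belonged to 3 transcripts of nicotianamine synthase, the enzyme that makes nicotianamine, a chelator of iron and other metals and the precursor of the phytosiderophores. The transcripts nas1 (GRMZM2G385200_T01, rank 120), GRMZM2G312481_T01 (rank 48) and GRMZM2G034956_T01 (rank 118) are described in the study's lists under the same protein. Close copies of this family may bind each other's probes, so that the 3 values are not independent. For nas1 the level was 3.70, 2.47 and 5.28 in N, 6.78, 7.45 and 6.99 in Aa and 5.17, 4.63 and 6.85 in Bio. Every Aa array lay above every N array, and Bio array 3 lay within the Aa arrays while the other Bio arrays did not. Aa exceeded N by 3.26 ± 0.75 (9.55-fold). Bio exceeded N by 1.73 ± 0.75 (3.32-fold), with overlap, and Bio minus Aa was -1.52 ± 0.75.

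Within slides 1, 2 and 3 nas1 was higher in Aa than in N by 3.08, 4.98 and 1.71 and higher in Bio than in N by 1.47, 2.16 and 1.57. GRMZM2G312481_T01 gave 4.47, 3.48 and 5.85 in N, 7.26, 7.95 and 7.47 in Aa and 5.65, 5.22 and 7.42 in Bio, and was the brightest transcript of all on Aa array 2. GRMZM2G034956_T01 gave 3.77, 2.40 and 5.31 in N, 6.73, 7.44 and 7.21 in Aa and 4.97, 4.58 and 7.04 in Bio. Their differences between Aa and N were 2.96 ± 0.69 and 3.30 ± 0.81, and those of Bio minus Aa -1.46 ± 0.69 and -1.60 ± 0.81. In all 3 transcripts array 2 was the lowest of N and of Bio and array 3 the highest. None of them was among the 200 highest of N alone, so that they are members through the Aa and Bio arrays. The 3 other named transcripts of this family ranked 1053, 5646 and 19500 and differed by 3.98, 3.90 and 4.30 between Aa and N. The study picked all 6 from these arrays, so that their common direction is not independent evidence, and 0 passed the threshold.

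Formate dehydrogenase (GRMZM2G418005_T01, rank 108), which oxidizes formate in mitochondria, gave 4.58, 4.13 and 5.18 in N, 6.30, 7.44 and 6.90 in Aa and 4.65, 4.31 and 6.47 in Bio. The N and Aa arrays did not overlap, while Bio arrays 1 and 2 lay with N and Bio array 3 with Aa. Aa exceeded N by 2.25 ± 0.57 (4.75-fold), and Bio minus Aa was -1.74 ± 0.57, the largest difference of a member in that comparison (limma, unadjusted p = 0.015, adjusted p = 0.764). Within the slides Aa exceeded N by 1.72, 3.30 and 1.72. It too was not among the 200 highest of N, so that no p is given against N. Of the 16 members that differed 2-fold in at least 1 comparison (11.3% of all transcripts did), 8 were not among the 200 highest of N and 2 not among those of Aa.

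Members of the wall and the root surface were found on both sides. A transcript described as arabinogalactan protein 1 (GRMZM2G081529_T01, rank 65), a sugar-rich protein of the cell surface, was at 5.04, 5.08 and 5.82 in N, 5.89, 7.11 and 6.90 in Aa and 5.89, 5.21 and 6.52 in Bio. Aa lay above N by 1.32 ± 0.43 (limma, unadjusted p = 0.015, adjusted p = 0.484), and the gap between the highest N and the lowest Aa array was small. A root cap-specific glycine-rich protein (GRMZM2G143397_T01, rank 116) was at 4.98, 4.47 and 5.32 in N, 5.74, 6.05 and 6.24 in Aa and 5.52, 5.13 and 6.07 in Bio. Aa exceeded N by 1.09 ± 0.31 (2.12-fold), and it was not among the 200 highest of N. These and the unnamed members at ranks 85, 128, 154 and 182, which were 1.06, 1.1, 1.33 and 1.01 higher in Aa, complete the 11 members with a 2-fold higher mean. The members at ranks 65, 116, 85, 128, 154 and 182 were chosen after their values were seen.

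Extensin HRGP (GRMZM2G168651_T01, rank 35), a hydroxyproline-rich protein that is cross-linked into the wall, stood lower with both organic sources. It gave 7.02, 6.72 and 6.95 in N, 6.25, 5.68 and 5.54 in Aa and 6.11, 6.16 and 5.53 in Bio. No Aa or Bio array reached the lowest N array. The differences were -1.07 ± 0.25 for Aa minus N and -0.96 ± 0.25 for Bio minus N (limma, unadjusted p = 0.0025 and 0.0048, adjusted p = 0.369 and 0.599), and Bio and Aa differed by 0.11 ± 0.25. Within slides 1, 2 and 3 the differences were -0.78, -1.04 and -1.40 for Aa minus N and -0.91, -0.56 and -1.41 for Bio minus N.

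Beta-expansin expB7 (GRMZM2G342246_T01, rank 183), which loosens the walls of grasses, was among the 200 highest of N and Bio but not of Aa. It was at 5.69, 6.0 and 5.79 in N, 4.59, 4.14 and 4.98 in Aa and 4.95, 5.46 and 4.92 in Bio. All Aa and all Bio arrays lay below the N arrays, with differences of -1.26 ± 0.26 and -0.71 ± 0.26 (limma for Bio, unadjusted p = 0.023, adjusted p = 0.651). With the normexp correction the Bio difference was 0.26 relative to the median transcript, and below 0 before that median was subtracted. Among 15 named expansins, 3 were lower in Aa than in N and 3 lower in Bio than in N at an unadjusted p below 0.05 (4.43% and 3.73% of all transcripts), none was higher, and the others of the 3 in both comparisons were expB6 and expB3. The median difference of the list was -0.08 in Aa and -0.44 in Bio. BX3 (rank 193), an enzyme of the benzoxazinoid defence compounds, gave 5.17, 5.33 and 6.09 in N, 4.72, 3.61 and 4.85 in Aa and 6.56, 4.69 and 4.99 in Bio. Its Aa arrays lay below N, with a difference of -1.14 ± 0.54, it was not among the 200 highest of Aa, and 6 of its 9 spots were marked.

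**Figure D4:**
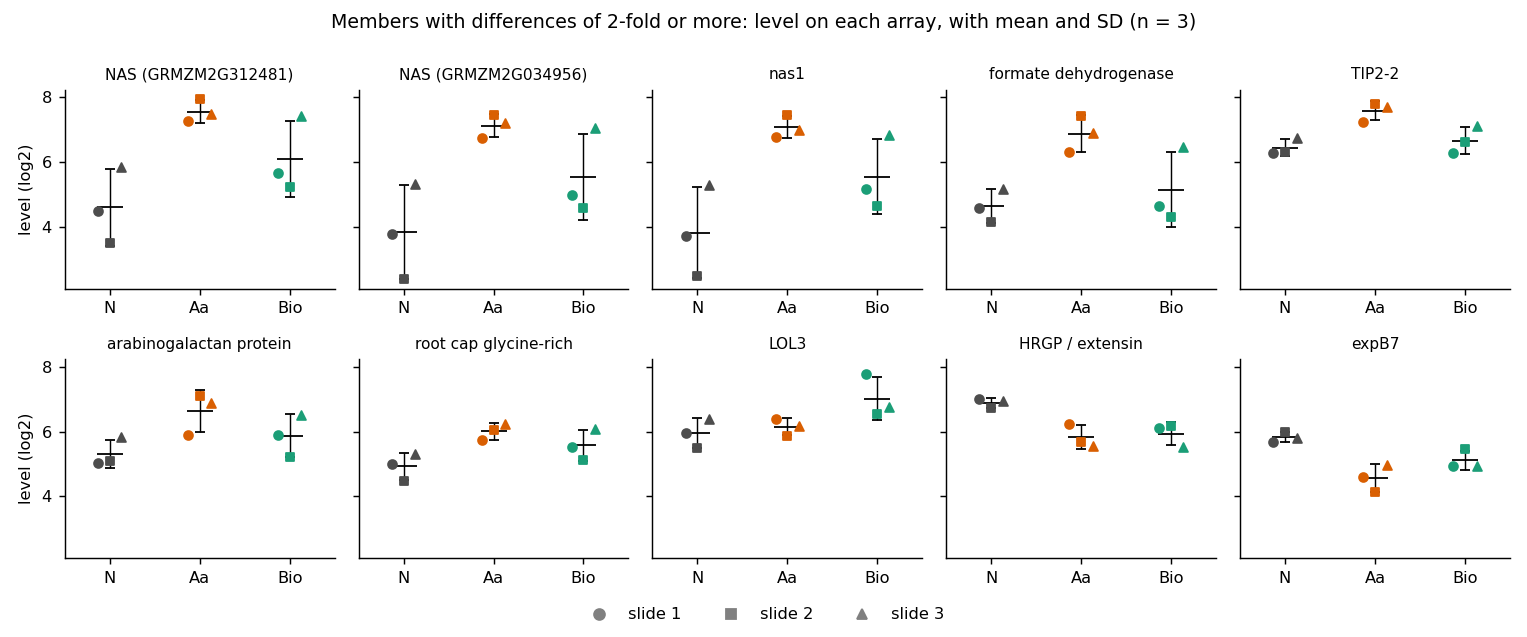
Level of 10 members on each array (points, with the shape giving the slide) and the mean with SD of the 3 arrays of a treatment, for named members that differed 2-fold in at least 1 comparison. The nicotianamine synthase (NAS) transcripts run from 2.40 to 7.95, and HRGP and expB7 are highest in N.

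Between Bio and N, LOL3 (GRMZM2G125314_T01, rank 24), of a family of small zinc finger proteins, was the member with the largest higher mean among those whose arrays did not overlap. It was at 5.95, 5.48 and 6.40 in N, 6.40, 5.88 and 6.16 in Aa and 7.78, 6.53 and 6.76 in Bio. Bio exceeded N by 1.08 ± 0.37 (2.11-fold; limma, unadjusted p = 0.018, adjusted p = 0.651) and Aa by 0.87 ± 0.37, and the excess over N was 1.83 on slide 1, 1.05 on slide 2 and 0.35 on slide 3. The summed level of the green tissue markers was also highest on Bio array 1. It fell from Bio array 1 to 3, whereas the level of LOL3 itself was lowest on Bio array 2. The part of these markers in the result was not tested. The member at rank 107 was also highest on Bio array 1, at 7.51, and between 4.23 and 6.0 on the others. GRMZM2G305856_T01 (rank 103) was higher in Bio than in N by 0.93 ± 0.25, with 0.93, 0.67 and 1.18 on the slides, but 7 of its 9 spots were marked. The members at ranks 39 and 168 were higher by 0.72 ± 0.23 and 0.80 ± 0.30. On the lower side, the member at rank 53 had a difference of -0.65 ± 0.26, or 0.21 relative to the median of all transcripts with normexp, next to HRGP, expB7 and chiI.

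Between Bio and Aa, the member piip1 (GRMZM2G477685_T01, rank 44) gave 6.30, 6.67 and 6.61 in Aa and 5.21, 5.87 and 5.82 in Bio. Bio minus Aa was -0.89 ± 0.25 (limma, unadjusted p = 0.0073, adjusted p = 0.764), with -1.09, -0.80 and -0.79 on the slides, and N lay at 6.58, 6.09 and 5.95. The members at ranks 53 and 139 had differences of -0.83 ± 0.26 and -0.75 ± 0.20, and none of these arrays overlapped. Among the members whose Bio arrays lay above all Aa arrays, LOL3 was followed by the members at ranks 129, 137 and 155, at 0.47, 0.47 and 0.38. The member at rank 155 was narrow within each treatment, at 5.15, 5.0 and 5.24 in N, 5.19, 5.18 and 5.23 in Aa and 5.63, 5.61 and 5.50 in Bio. Of the 3 comparisons, Aa vs. N and Bio vs. N share the N arrays, and their values are given side by side only.

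The SD among replicates, pooled over treatments, had a median of 0.25 for the members (quartiles 0.17 and 0.36) and of 0.37 for all transcripts. Bright transcripts in general had a like SD: in steps of 1 in level the median SD was 0.25 between 0 and 1, 0.25 between 3 and 4 and 0.24 between 5 and 6. The 5 members with the smallest SD, from 0.066 to 0.079, were ADF3 and 4 unnamed ones, at ranks 66, 79, 104 and 157. The 5 with the largest were the 3 nicotianamine synthase transcripts (0.983, 1.07 and 1.16) and the members at ranks 198 (0.870) and 107 (0.833). Over all 9 arrays the range of a member had a median of 0.783, with 33 members under 0.5 and 17 members at 2 or more. The array farthest from the median of the 9 was Bio array 1 for 24.0% of the members and Bio array 2 for 19.5%, against 24.2% and 15.1% of all transcripts.

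**Figure D5:**
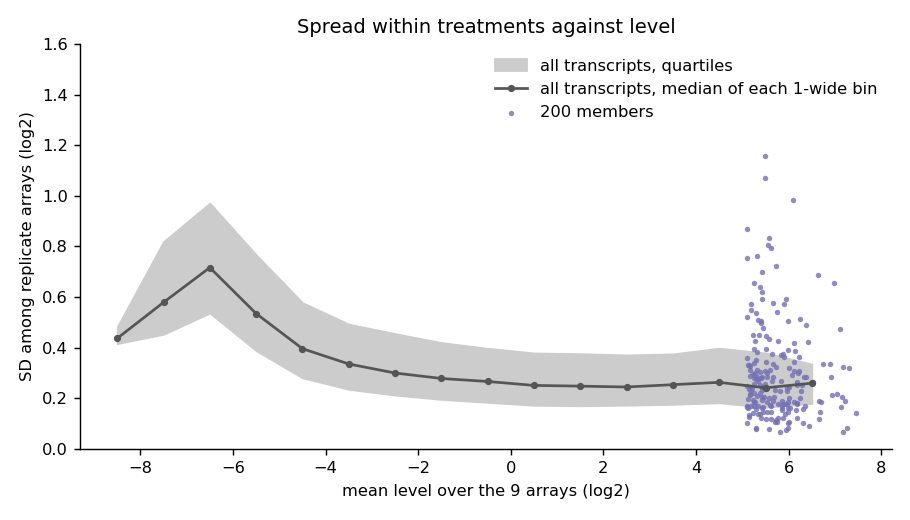
SD among replicate arrays, pooled over treatments, against the mean level over the 9 arrays, for all transcripts (line for the median of each step of 1 in level, band for the quartiles) and for the members (points). The median is near 0.25 from a level of 0 upward, and 3 members lie near or above an SD of 1.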

How the data were processed

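Total RNA from roots was labelled with Cy3 and hybridized to 9 one-colour Agilent arrays, 3 for each of N, Aa and Bio, with 1 probe for each of 39372 transcripts. The deposited values were the scanner's processed signal intensity per spot, background-corrected by Agilent Feature Extraction 10.5.1.1 per the file headers, and the authors also deposited a table of the same intensities scaled by 1 factor per array, used as an alternative. The 75th percentile of the intensity was between 617.1 and 962.1 on the arrays, and the number of arrays limits the precision. The log2 of the deposited intensity minus the log2 of the array's 75th percentile was taken as the level, and control spots were left out. The 200 members and all lists were chosen with earlier results of these data known.

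Differences were fitted with limma 3.58.1 in R 4.3.3 (lmFit and eBayes) on all 9 arrays in 1 model, with Benjamini-Hochberg adjustment over all transcripts, a threshold of 0.01 and a fold of 2, and adjusted and unadjusted p-values are two-sided. The procedure was tested on simulated data first. The threshold follows the study, whose permutation-based t-test with Bonferroni adjustment was not repeated; the methods' t-test here used the t distribution. Replicates were independent pools of seedlings. Named transcripts were the 15 highest members, the 4 largest higher and lower differences without overlap in each comparison, the 2 highest members of each list, the 5 largest and smallest SDs, the ranks around the limit of the set and the PCR reference. Names came from a RefSeq gene table of a newer assembly and, for 12 members, from descriptions in the study's lists. Since the table holds no product descriptions, lists were built from symbols and synonyms and cover the named transcripts only. Promoters and proteins were not analysed here. Alternatives were quantile normalization, normexp correction with an offset of 50, a percentile over probes well above background, marked spots left out, a filter on dim probes, the authors' table, the methods' t-test, a fit of only the treatments compared, an intensity trend in eBayes, an adjusted p of 0.05 with no minimum fold, each array left out in turn and the replicate number as a block, which equals the slide. Python 3.11.15, pandas 2.3.3, numpy 2.4.6 and matplotlib 3.10.9 were used.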

Additional observations from a re-analysis of the deposited data

How the results depend on the processing

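No member passed the threshold in any comparison under the limma alternatives, and the smallest adjusted p of a named difference over them was 0.228. The methods' t-test without adjustment took in 3 members in Aa vs. N. With normexp, the members without overlap numbered 26 in Aa vs. N and 12 in Bio vs. N, the median and the median size of their differences were both 1.26 in Aa vs. N and 1.03 in Bio vs. N relative to the median transcript, and 0 members stood at an unadjusted p below 0.05 in Bio vs. Aa. Also relative to the median transcript, the difference of GRMZM2G093405_T01 in Aa vs. N became 0.37 under it. Those of GRMZM2G145461_T01 (chiI), GRMZM2G027167_T01 and GRMZM2G342246_T01 (expB7) in Bio vs. N became 0.33, 0.21 and 0.26. The medians subtracted were -0.48 and -0.34, and before this subtraction all of these differences still lay below 0. The sign turned only after the subtraction. With the level used for the main results, each of these differences was larger in size than the median subtracted here. The subtraction alone would therefore not have turned their sign, and their smaller size under normexp was needed as well. Why these differences were smaller in size under normexp was not tested. A filter on dim probes gave 22 members at an unadjusted p below 0.05 in Bio vs. N.

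The replicate block gave 25 members for Aa against N, 24 for Bio against N and 22 for Bio against Aa with an unadjusted p under 0.05. The deviations of same-numbered arrays correlated between 0.01 and 0.34 over 9 pairs, and not every array correlated best with its own number. Since the number equals the slide, a separate slide block was not run.

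With 1 array left out, members with an unadjusted p under 0.05 numbered 13 to 23 in Aa vs. N (13 without Aa array 2), 7 to 28 in Bio vs. N (7 without N array 2 or Bio array 1, 28 without Bio array 2) and 5 to 28 in Bio vs. Aa (5 without Aa array 2, 6 without Bio array 1, 28 without Bio array 3). Members without overlap, which fewer arrays make more common, numbered 40 to 70 (61, 70 and 67 without N array 1, Aa array 1 and Aa array 3), 33 to 64 (54, 64 and 63 without N array 1, Bio array 2 and Bio array 3) and 22 to 66 (64, 37, 40, 39 and 66 without Aa arrays 1 and 2 and Bio arrays 1, 2 and 3). Medians of the differences were 0.08 to 0.13, 0.02 to 0.11 and -0.10 to -0.01. The set itself kept 194 to 198 members with an array left out, all but 1 with quantile normalization, 179 with normexp and 194 with marked spots missing. All members were well above background on every array, and 3 arrays per treatment limit the precision.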
